A study of Homo sapiens with 6 samples.

Results

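DSIF, NELF and the PAF1 complex (PAF1C) are the protein complexes that ride on RNA polymerase II as it leaves a promoter, and the 10 genes described here encode their subunits. SUPT4H1 and SUPT5H encode DSIF, NELFA, NELFB and NELFE belong to NELF, and PAF1, CTR9, LEO1, CDC73 and RTF1 belong to PAF1C. The genes were chosen by name as members of these complexes, and all 10 of the 10 were found by symbol among the 57905 genes counted. NELFCD of NELF and WDR61 of PAF1C are subunits outside these 10 genes and are given beside them.

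The data are RNA-SEQ libraries of total RNA from NALM6 cells, an established human line of B-cell precursor acute lymphocytic leukemia (B-ALL). The cells were treated for 24 h with the solvent DMSO (3 libraries) or with 500 nM of THZ1 (3 libraries), a covalent inhibitor of the kinase CDK7. Both treatments used the same line, and no genetic change is named for it. The comparison asks what THZ1 did to the transcripts of these cells. The line is a single leukemia, and nothing in the labels says that the 3 libraries of a treatment came from separate cultures, so p-values measure the spread between these libraries, which may be technical.

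RNA polymerase II pauses soon after it starts a gene. DSIF and NELF bind and hold it there, and the kinase P-TEFb releases it by phosphorylating DSIF, NELF and the C-terminal domain (CTD) of the polymerase, after which NELF leaves and DSIF travels on as an elongation factor. PAF1C joins the released polymerase and couples it to histone modification, and CDK7, within TFIIH, phosphorylates the CTD and activates the kinase of P-TEFb.

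The promoters of 4 of the genes are shown because the results turn on them. SUPT5H rose most and RTF1 fell most of the 10 genes. NELFE and PAF1, like SUPT5H, start near a neighbour that moved the other way, by the annotation on GRCh37. The sequences use RefSeq starts, which for SUPT5H and RTF1 appear to lie inside the annotated gene. Each sequence is the RefSeq window of 250 bases before to 50 bases after the start site in GRCh38.p14, read along the gene's strand from 5′ to 3′. Capitals mark a GC box (GGGCGG), an ETS core (CGGAAG), an NRF1 core (GCATGCG) or a YY1 core (AAGATGG) on either strand, and a GC box and an ETS core may share bases. The windows are chr19:39445332-39445631 on the plus strand for SUPT5H, chr15:41416845-41417144 on the plus strand for RTF1, chr6:31958922-31959221 on the minus strand for NELFE and chr19:39391057-39391356 on the minus strand for PAF1.
SUPT5H: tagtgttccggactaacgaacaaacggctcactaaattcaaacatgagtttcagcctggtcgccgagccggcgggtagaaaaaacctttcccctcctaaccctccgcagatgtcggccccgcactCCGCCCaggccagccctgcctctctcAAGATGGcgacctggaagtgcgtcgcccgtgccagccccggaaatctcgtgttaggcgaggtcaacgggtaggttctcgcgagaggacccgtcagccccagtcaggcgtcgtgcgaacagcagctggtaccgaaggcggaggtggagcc
RTF1: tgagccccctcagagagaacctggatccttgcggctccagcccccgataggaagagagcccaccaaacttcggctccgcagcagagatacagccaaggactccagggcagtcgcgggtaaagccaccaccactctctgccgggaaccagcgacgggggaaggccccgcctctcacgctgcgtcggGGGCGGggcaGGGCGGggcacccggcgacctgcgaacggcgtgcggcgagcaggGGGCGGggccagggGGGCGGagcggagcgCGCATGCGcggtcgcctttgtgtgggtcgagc
NELFE: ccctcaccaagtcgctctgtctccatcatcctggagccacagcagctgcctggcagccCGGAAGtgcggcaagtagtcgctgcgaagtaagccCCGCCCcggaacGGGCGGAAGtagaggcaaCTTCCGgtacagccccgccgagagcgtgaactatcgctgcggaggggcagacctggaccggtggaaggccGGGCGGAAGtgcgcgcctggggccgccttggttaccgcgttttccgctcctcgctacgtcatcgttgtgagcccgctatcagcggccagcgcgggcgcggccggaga
PAF1: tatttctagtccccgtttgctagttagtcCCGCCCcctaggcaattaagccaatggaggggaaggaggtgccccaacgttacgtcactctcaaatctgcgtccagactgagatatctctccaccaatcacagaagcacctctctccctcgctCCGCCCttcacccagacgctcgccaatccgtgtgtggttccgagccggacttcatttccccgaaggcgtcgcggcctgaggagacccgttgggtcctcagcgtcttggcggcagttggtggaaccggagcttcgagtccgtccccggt

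RefSeq windows were found for 9 of the 10 genes, all but CDC73. A GC box was in 8 of these 9 windows, NELFA being without it, and in 44.6% of the 27305 windows of all genes. An ETS core was in 5 of the 9 (SUPT4H1, NELFA, NELFB, NELFE and CTR9) and in 19.9% of all windows. The NRF1 core was in NELFB and RTF1 (4.13% of all windows), and the YY1 core in SUPT5H and NELFA (6.06% of all windows). The E-box CACGTG, found in 7.43% of all windows, and the TATA box TATAAA, found in 12.0%, were in 0 of the 9. The GC content of the 9 windows ran from 57.7% to 79.3% with a median of 67.7%, and the median over all windows was 58.3%. No motif of this set was in every window of the genes that rose and in none of those that fell. SUPT5H and NELFA, which both rose, held the YY1 core, whereas the NRF1 core was in NELFB, which rose, and in RTF1, which fell.

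The libraries held 11015480 to 11164840 counts with DMSO and 7876402 to 8314306 with THZ1. Mitochondrial genes took 4.32% to 4.37% of counts with DMSO and 12.6% to 13.6% with THZ1, and the scaling factors of the TMM method were 1.06 to 1.11 and 0.915 to 0.920. Levels are therefore given as CPM, the count of a gene relative to the TMM-scaled library size, and the part of the mitochondrial share in the results was not tested. The summed level of 10 B-cell precursor markers, such as PAX5 and EBF1, was 3890 to 4050 CPM with DMSO and 2095 to 2169 CPM with THZ1, and 7 of the 10 fell and 2 rose. The summed level of 4 T-cell markers was at most 0.969 CPM in any library and that of 3 erythroid markers at most 0.526 CPM. The summed level of 4 monocyte markers was 2.45 to 3.85 CPM with DMSO and 17.0 to 18.8 CPM with THZ1, where CD14 and CSF1R rose, LYZ fell and ITGAM was too low to be tested. Its part in the results was not tested.

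All 10 genes changed with THZ1, in opposite directions within each of the 3 complexes, although 3 of the rises depended on how the libraries were scaled. By edgeR's quasi-likelihood test at a Benjamini-Hochberg adjusted p-value below 0.05, 6 of the 10 rose (SUPT5H, CTR9, LEO1, CDC73, NELFB and NELFA) and 4 fell (RTF1, NELFE, SUPT4H1 and PAF1). Of all 16622 genes tested, 43.5% rose and 41.1% fell by the same rule, so a change as such was common. Among the 10156 genes with a mean of at least 10 CPM, 35.8% rose and 50.6% fell, whereas more of the 10 genes rose than fell. This difference rests on only 10 genes and was not tested. With library sizes alone in place of TMM, edgeR called 3 of the 10 genes higher (SUPT5H, CTR9 and LEO1) and 4 lower, and none of the 3 NELF genes higher. At log2 fold changes beyond 1.5 either way, SUPT5H alone rose and RTF1 alone fell among the 10 genes, against 24.6% and 12.9% of all genes tested. The 3 THZ1 libraries did not overlap with the 3 DMSO libraries in any of the 10 genes, which was also so for 84.7% of all genes tested. The median log2 fold change of the 10 genes was 0.27, beside 0.03 over all genes tested, -0.20 over protein-coding genes and -0.23 over genes with a mean of at least 10 CPM. Because these are levels in bulk RNA, fewer cells with a transcript and less transcript per cell cannot be told apart, and all levels are relative to the RNA of the library.

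**Figure D1:**
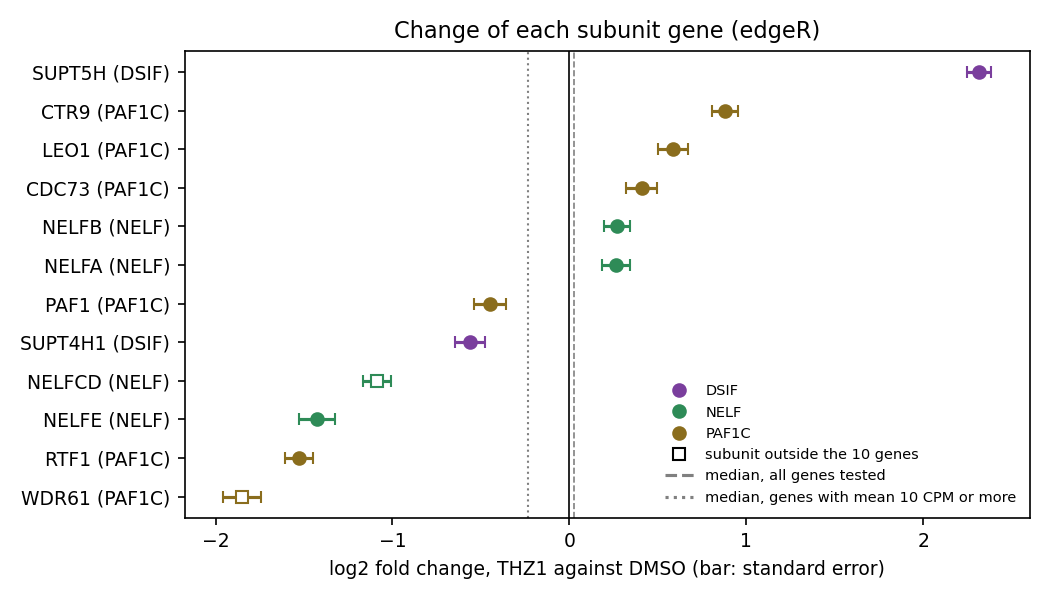
Log2 fold change of each subunit gene with THZ1 against DMSO (points, with the standard error of the edgeR fit as bars, 3 libraries per treatment), coloured by complex, with open squares for NELFCD and WDR61 and vertical lines at the medians of all genes tested and of genes with a mean of at least 10 CPM. Each complex has subunits on both sides of 0, from SUPT5H at 2.31 to WDR61 at -1.85.

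In DSIF, the transcript of the large subunit rose and that of the small subunit fell: SUPT5H was 4.98-fold higher with THZ1, and SUPT4H1 1.48-fold lower. SUPT5H (ENSG00000196235, chr19:39926796-39967310 on GRCh37, plus strand) encodes SPT5, which clamps the polymerase onto DNA and RNA and carries the C-terminal repeats that P-TEFb phosphorylates. Its level was 198, 187 and 200.1 CPM in the DMSO libraries and 1017, 937 and 956 CPM in the THZ1 libraries. Every THZ1 library was thus far above every DMSO library, and the raw counts, 2279 to 2393 with DMSO and 6767 to 7732 with THZ1, were higher too although the THZ1 libraries were smaller. The mean rose from 195 ± 7.12 to 970 ± 41.8 CPM (SD, n = 3 each), with a log2 fold change of 2.31 ± 0.07 (SE) and an adjusted p of 9.1e-24 by edgeR's quasi-likelihood test. Of all genes tested, 18.2% had a higher log2 fold change than SUPT5H, and of genes with a mean of at least 10 CPM, 6.56% did.

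SUPT4H1 (ENSG00000213246, chr17:56422536-56430454, minus strand) encodes SPT4, the small zinc-finger partner of SPT5. Its level was 77.2, 75.6 and 86.9 CPM with DMSO and 51.7, 54.0 and 56.5 CPM with THZ1. The THZ1 libraries lay below all DMSO libraries, and the mean fell from 79.9 ± 6.13 to 54.1 ± 2.44 CPM. The log2 fold change was -0.56 ± 0.08 (SE), with an adjusted p of 3.4e-07 by edgeR. By its gene bounds, the antisense gene TSPOAP1-AS1 spans the whole of SUPT4H1 on the other strand, and it rose from 74.4 ± 3.35 to 115 ± 3.36 CPM. Whether the counting used strand is not given in the sources used here. Reads of one of the 2 genes may thus have been left out or counted for the other. ENSG00000285897, a protein-coding model on the same strand that covers most of SUPT4H1, had no row in the count table.

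In NELF, 2 subunits rose slightly and by the same amount, and the others fell. NELFE (ENSG00000204356, chr6:31919864-31926815, minus strand), whose protein carries the RNA recognition motif of the complex, fell 2.69-fold. Its level was 73.1, 63.0 and 83.1 CPM with DMSO and 26.6, 27.1 and 27.8 CPM with THZ1. The DMSO libraries differed among themselves by more than the THZ1 libraries did, yet the lowest DMSO library was far above the highest THZ1 library. The mean went from 73.1 ± 10.05 to 27.2 ± 0.623 CPM, a log2 fold change of -1.43 ± 0.10 (SE) with an adjusted p of 2.9e-14 by edgeR. These THZ1 values rest on 196 to 208 raw counts per library, the fewest of the 10 genes.

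NELFA (ENSG00000185049, chr4:1984444-2043630, minus strand) encodes the subunit that contacts the polymerase. Its level was 67.3, 60.8 and 67.8 CPM with DMSO and 76.4, 77.5 and 81.1 CPM with THZ1. NELFB (ENSG00000188986, chr9:140149779-140167994, plus strand), whose protein links the other subunits in the core of the complex, was at 132, 126 and 148 CPM with DMSO and 166, 153 and 169 CPM with THZ1. For both genes the treatments did not overlap, but the gap between the highest DMSO and the lowest THZ1 library was small. NELFA rose from 65.3 ± 3.91 to 78.4 ± 2.48 CPM, with a log2 fold change of 0.26 ± 0.08 (SE) and an adjusted p of 0.0034 by edgeR. NELFB rose from 135 ± 11.3 to 163 ± 8.38 CPM, with a log2 fold change of 0.27 ± 0.07 (SE) and an adjusted p of 0.0014 by edgeR. Both rises depended on how the libraries were scaled: with library sizes alone, edgeR gave log2 fold changes of 0.02 for NELFA (adjusted p = 0.86) and 0.02 for NELFB (adjusted p = 0.78). On the deposited FPKM values, limma gave 0.04 for NELFB (adjusted p = 0.50), and without a filter on low counts, edgeR gave 0.18 for NELFA (adjusted p = 0.074).

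NELFCD, the remaining subunit of NELF (ENSG00000101158, chr20:57556263-57570188, plus strand), encodes the partner of NELFA. Its level was 114, 105 and 111 CPM with DMSO and 52.5, 49.0 and 53.5 CPM with THZ1. It therefore lay with NELFE among the subunits that fell, at a log2 fold change of -1.09 ± 0.08 (SE) with an adjusted p of 7.2e-14 by edgeR. Of the 4 subunit genes of NELF, 2 rose and 2 fell. The summed level of the 3 NELF genes among the 10 was 249 to 299 CPM with DMSO and 258 to 278 CPM with THZ1, so the sums overlapped.

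**Figure D2:**
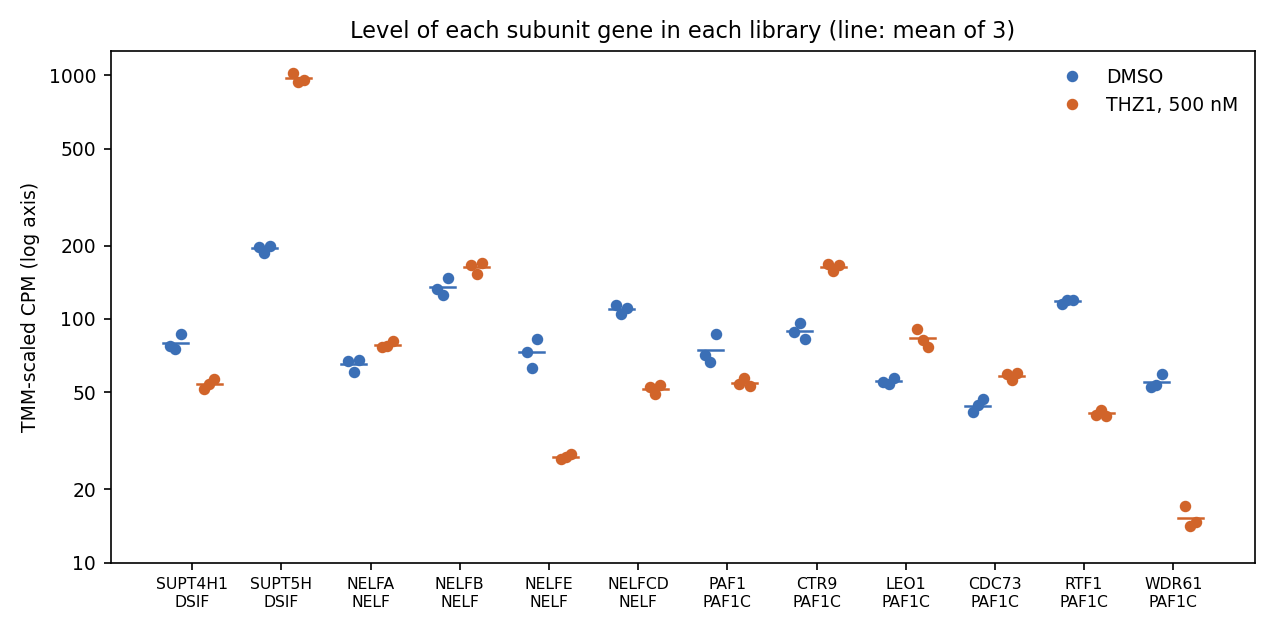
Level of each subunit gene in each of the 6 libraries, in CPM after TMM scaling on a log axis, with a line at the mean of the 3 libraries of a treatment. SUPT5H reached 937 to 1017 CPM with THZ1, whereas NELFA and NELFB moved little and NELFE, RTF1, NELFCD and WDR61 lay far below their DMSO libraries.

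In PAF1C, 3 genes rose and 2 fell, of the 5 genes among the 10, and RTF1 fell most of these 5. RTF1 (ENSG00000137815, chr15:41700606-41775761, plus strand) encodes the subunit that stimulates ubiquitination of histone H2B and is only loosely bound to the complex in human cells. Its level was 115, 119 and 119.9 CPM with DMSO and 40.4, 42.5 and 40.1 CPM with THZ1. Within each treatment the 3 libraries were nearly alike, and the treatments were far apart. The mean fell 2.88-fold, from 118 ± 2.56 to 41.0 ± 1.31 CPM, with a log2 fold change of -1.53 ± 0.08 (SE) and an adjusted p of 1.7e-17 by edgeR. Of all genes tested, 12.5% had a lower log2 fold change than RTF1.

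PAF1 (ENSG00000006712, chr19:39876269-39881794, minus strand) gives the complex its name, and its protein pairs with LEO1. Its level was 71.3, 66.6 and 86.7 CPM with DMSO and 54.0, 57.0 and 53.3 CPM with THZ1. The third DMSO library was the highest, and all DMSO libraries were above all THZ1 libraries. The mean fell from 74.9 ± 10.5 to 54.8 ± 1.96 CPM, with a log2 fold change of -0.45 ± 0.09 (SE) and an adjusted p of 4.4e-05 by edgeR.

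CTR9 (ENSG00000198730, chr11:10772793-10823172, plus strand) encodes the scaffold of the complex. Its level was 88.6, 96.1 and 82.9 CPM with DMSO and 168, 157 and 167 CPM with THZ1. The groups were well apart, and the mean rose 1.84-fold, from 89.2 ± 6.65 to 164 ± 6.30 CPM. The log2 fold change was 0.88 ± 0.07 (SE), with an adjusted p of 2.2e-12 by edgeR. CTR9 overlaps EIF4G2 on the other strand by 4576 bases of annotated gene, and EIF4G2 rose from 960 ± 51.2 to 1372 ± 50.5 CPM.

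LEO1 (ENSG00000166477, chr15:52230222-52263975, minus strand) was at 55.4, 54.3 and 57.4 CPM with DMSO and 91.3, 82.4 and 77.0 CPM with THZ1. All THZ1 libraries were higher, and they were more spread than the DMSO libraries. The mean rose from 55.7 ± 1.58 to 83.5 ± 7.20 CPM, with a log2 fold change of 0.59 ± 0.08 (SE) and an adjusted p of 1.2e-07 by edgeR. The gene bounds of MAPK6 and TMOD3 overlap LEO1 on the other strand, and these genes had log2 fold changes of -0.06 ± 0.09 (adjusted p = 0.54 by edgeR) and 0.81 ± 0.08 (adjusted p = 1.1e-10 by edgeR).

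CDC73 (ENSG00000134371, chr1:193091113-193223945, plus strand) encodes parafibromin, a tumor suppressor mutated in parathyroid cancer. Its level was 41.3, 44.2 and 46.9 CPM with DMSO and 59.7, 56.1 and 60.0 CPM with THZ1. The libraries did not overlap, and the mean rose from 44.1 ± 2.79 to 58.6 ± 2.20 CPM, with a log2 fold change of 0.41 ± 0.09 (SE) and an adjusted p of 8e-05 by edgeR. This call was lost with library sizes alone, where edgeR gave a log2 fold change of 0.16 (adjusted p = 0.084), and on the deposited FPKM values, where limma gave 0.16 (adjusted p = 0.12).

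WDR61 (also SKIC8, ENSG00000140395, chr15:78570177-78592045, minus strand) encodes a subunit that PAF1C shares with the Ski complex, which works with the RNA exosome. Its level was 52.6, 53.8 and 59.4 CPM with DMSO and 17.1, 14.1 and 14.7 CPM with THZ1. It fell further than any of the 10 genes, by 3.60-fold, at a log2 fold change of -1.85 ± 0.11 (SE) with an adjusted p of 2.3e-16 by edgeR. With WDR61, 3 of the 6 subunit genes of PAF1C rose and 3 fell. The summed level of the 5 PAF1C genes among the 10 was 372 to 394 CPM with DMSO and 395 to 413 CPM with THZ1, so the sum moved far less than its parts.

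The summed level of all 10 genes was 892 to 979 CPM with DMSO and 1643 to 1751 CPM with THZ1. Without SUPT5H it was 706 to 779 CPM with DMSO and 707 to 734 CPM with THZ1, and the treatments overlapped. The higher sum with THZ1 was thus made up by SUPT5H.

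To compare subunits free of any scaling between libraries, the count of each subunit was set against its own complex within each library, as log2(count + 0.5) minus the mean of the same over the listed subunits of the complex. All 10 values of this subunit balance separated the treatments without overlap. Count ratios did the same in 85.9% of all pairs of genes with a mean of at least 10 CPM, so separation as such was common. Each value gave p = 0.1 by a two-sided exact permutation test (n = 3 each), the smallest p that 3 against 3 allows. After Benjamini-Hochberg adjustment over the 10, p was 0.1. Within a complex the balances sum to 0, so the rise of 1 subunit can follow from the fall of another. SUPT5H went from 0.64 ± 0.04 to 2.08 ± 0.06 (SD) above the mean of DSIF, and SUPT4H1 moved by the same amount the other way, since DSIF has 2 subunits. In NELF, the balance of NELFA rose by 0.56, that of NELFB by 0.56, and that of NELFE fell by 1.12 on the log2 scale, so the values of NELFA and NELFB mirror that of NELFE. In PAF1C, the balance of CTR9 rose by 0.90, that of LEO1 by 0.60 and that of CDC73 by 0.43, while RTF1 fell by 1.51 and PAF1 by 0.42. With WDR61 counted in PAF1C, the treatments overlapped for PAF1, whose balance then changed by -0.12 (exact permutation test, two-sided, p = 0.3), and the other 4 still separated. With DMSO the balance of RTF1 was 0.72 ± 0.03 and with THZ1 -0.79 ± 0.06.

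**Figure D3:**
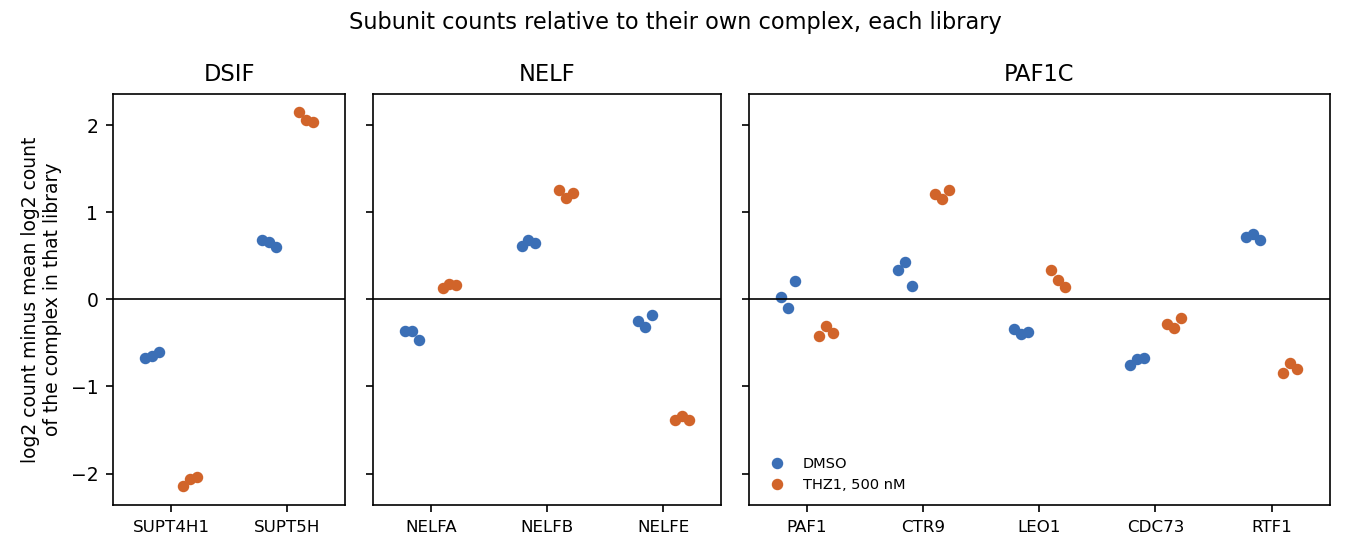
Count of each subunit relative to its own complex in each of the 6 libraries, as log2(count + 0.5) minus the mean over the listed subunits of that complex in the same library (dots, 3 libraries per treatment). With these 10 genes, no subunit overlapped between DMSO and THZ1, as was common for count ratios of other genes. RTF1 went from 0.72 above the mean of PAF1C to -0.79.

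Pairs of subunits were then compared by the ratio of their counts in each library, over 22 pairs within the complexes with NELFCD and WDR61 included. The treatments did not overlap in 20 of the 22 pairs, each with p = 0.1 by the exact permutation test (0.11 after adjustment over the 22). The same was so for 85.9% of all pairs of genes with a mean of at least 10 CPM, so a shift of a ratio as such was common too. There were 2.56, 2.47 and 2.30 counts of SUPT5H per count of SUPT4H1 with DMSO and 19.7, 17.3 and 16.9 with THZ1. This 7.34-fold rise was the widest change of any pair. Next came CTR9 to WDR61, with a 6.63-fold rise, and LEO1 to WDR61, with a 5.40-fold rise. The ratio of CTR9 to RTF1 was 0.769, 0.805 and 0.691 with DMSO and 4.16, 3.68 and 4.16 with THZ1, a 5.30-fold rise.

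The pairs that overlapped were NELFB with NELFA and LEO1 with CDC73. NELFB to NELFA was 1.97, 2.07 and 2.18 with DMSO and 2.17, 1.98 and 2.08 with THZ1, so the ratio stayed between 1.97 and 2.18 in all 6 libraries (exact permutation test, two-sided, p = 0.8). LEO1 to CDC73 was 1.34, 1.23 and 1.22 with DMSO and 1.53, 1.47 and 1.28 with THZ1 (exact permutation test, two-sided, p = 0.2). Other pairs that moved the same way still shifted against each other: NELFCD to NELFE rose 1.26-fold and RTF1 to WDR61 rose 1.25-fold, both without overlap.

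Levels can be compared between genes only per length, for which the deposited FPKM values were used. Over all genes, the sorted values of this table were nearly alike within a treatment, so its SDs and overlaps may not show the full spread between libraries. In the DMSO libraries NELFB was the highest at 154 ± 5.67 FPKM (SD, n = 3), followed by SUPT4H1 at 108 ± 3.93, NELFE at 77.7 ± 8.46, PAF1 at 74.0 ± 8.30 and SUPT5H at 64.2 ± 0.906 FPKM. Below them came LEO1 at 59.1 ± 0.178, RTF1 at 57.5 ± 1.83, CTR9 at 43.0 ± 3.87, NELFA at 35.9 ± 1.90 and CDC73 at 12.2 ± 0.846 FPKM. The libraries of neighbours in this order overlapped for NELFE with PAF1 and for LEO1 with RTF1, and not for the other neighbours. In FPKM, the small subunit of DSIF thus stood above the large subunit with DMSO. Before division by length the order was the reverse, at 79.9 CPM for SUPT4H1 and 195 CPM for SUPT5H. The order per length in both treatments rests on the length given to each gene. With all annotated exons merged, this was 2.08 kb for SUPT4H1, 8.57 kb for SUPT5H and 10.5 kb for CDC73. Lengths of single transcripts were not tried.

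In the THZ1 libraries SUPT5H was the highest at 273 ± 8.77 FPKM, followed by NELFB at 159 ± 7.54, LEO1 at 80.3 ± 6.82, CTR9 at 72.6 ± 2.78 and SUPT4H1 at 66.7 ± 3.21 FPKM. PAF1 was at 50.1 ± 1.45, NELFA at 40.7 ± 1.47, NELFE at 26.6 ± 0.665, RTF1 at 18.0 ± 0.5002 and CDC73 at 13.8 ± 0.623 FPKM. Neighbours overlapped for LEO1 with CTR9 and for CTR9 with SUPT4H1. SUPT5H went from the fifth place to the first and RTF1 from the seventh to the ninth, while CDC73 was last in both treatments. Within each treatment, ranking by CPM per kilobase of merged exons gave the same order as FPKM, which does not check the choice of length. These measures are close to each other, since the FPKM of a gene was 2.78 to 2.91 times its CPM per kilobase with DMSO over the 10 genes and 2.41 to 2.63 times with THZ1.

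**Figure D4:**
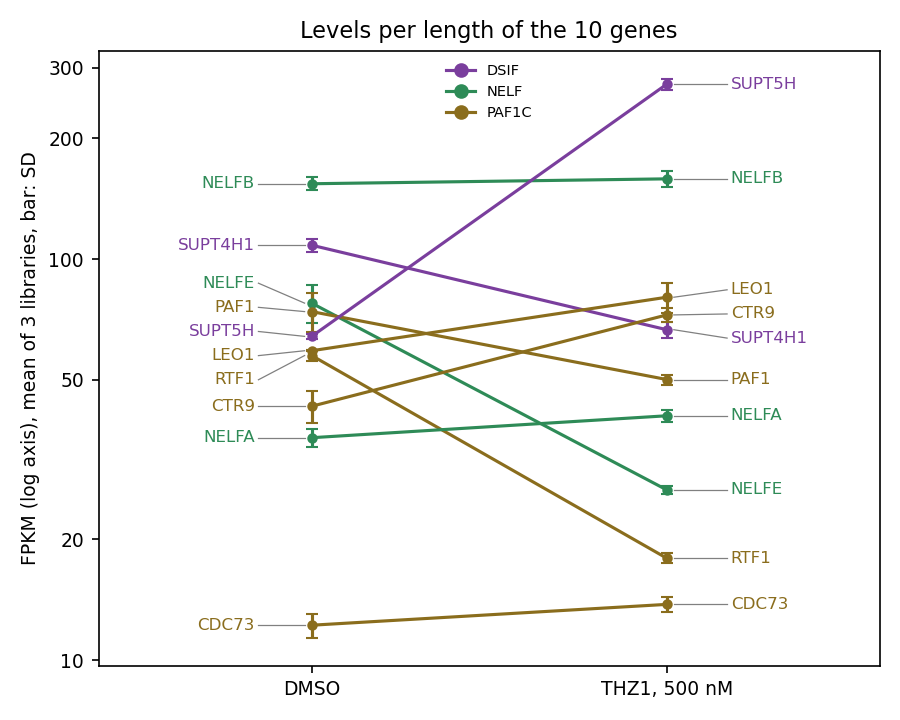
Level per length of the 10 genes in FPKM on a log axis, as the mean of 3 libraries with the SD as bars, joined between DMSO and THZ1 and coloured by complex. SUPT5H passed from 64.2 to 273 FPKM, and RTF1 from 57.5 to 18.0 FPKM.

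Of the 10 genes, 5 start within 1000 bases of a gene on the other strand, and 4 of these neighbours could be tested. The 3 that point away from their partner without overlap moved against it. Over all 431 such pairs of protein-coding genes in which both genes were called, 35.0% moved in opposite directions. NELFE starts 78 bases from SKIC2 in the GRCh37 annotation, and SKIC2, a helicase of the Ski complex, rose from 63.6 ± 2.32 to 134 ± 8.43 CPM (log2 fold change 1.08 ± 0.08, adjusted p = 3.4e-14 by edgeR). PAF1 starts 149 bases from MED29, a subunit of the Mediator complex, which rose from 38.3 ± 0.973 to 80.7 ± 5.96 CPM (log2 fold change 1.08 ± 0.09, adjusted p = 5e-13 by edgeR). SUPT5H starts 207 bases from RPS16, a protein of the small ribosomal subunit, which fell from 815 ± 126 to 578 ± 35.1 CPM (log2 fold change -0.50 ± 0.08, adjusted p = 1.6e-06 by edgeR). These distances use annotated starts on GRCh37, whereas the printed windows use RefSeq starts on GRCh38, and the starts can differ. The printed windows of PAF1 and SUPT5H lie further apart than the 45.0 kb between their annotated starts. The SUPT5H window thus appears to lie inside SUPT5H, away from RPS16. Whether the printed windows of NELFE and PAF1 span the gap to their neighbours was not tested. RTF1 and NDUFAF1, whose annotated starts lie 995 bases apart with overlapping first parts, both fell. NDUFAF1 fell by 0.49 ± 0.16 on the log2 scale (adjusted p = 0.0048 by edgeR). The printed RTF1 window appears to lie further inside RTF1 than this annotated start. C4orf48, 92 bases from the start of NELFA, had 0 counts in all libraries.

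PAF1 and SUPT5H are themselves near neighbours, with 45.0 kb between the facing start sites on chromosome 19, and PAF1 fell while SUPT5H rose. The 10 genes span 5.53 kb (PAF1) to 133 kb (CDC73) with a median of 37.1 kb. Over all 11929 protein-coding genes tested, longer genes had lower log2 fold changes (Spearman rho = -0.34, across genes, which share their libraries and are not independent). Over the 10 genes, rho was 0.25 (n = 10). The shortest of the 10 genes, PAF1, NELFE and SUPT4H1, all fell. The longest, CDC73, rose, whereas the next longest, RTF1 at 75.2 kb, fell most of the 10 genes.

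Other genes of transcription elongation were read from 5 lists of 52 genes, of which 50 were tested. Of the 50, 21 rose, 22 fell and 7 did not pass the test, with a median log2 fold change of 0.04, beside 0.03 over all genes tested, and beyond 1.5 either way on the log2 scale 7 rose and 3 fell. These counts were near those over all genes tested, of which 43.5% rose and 41.1% fell, though at the higher threshold 24.6% and 12.9% did. The lists differed from each other in their counts, and these differences were not tested.

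P-TEFb and the 7SK complex that holds it inactive had the highest median of the 5 lists, 0.92 over 8 genes, of which 6 rose, 1 fell and 1 did not pass the test. HEXIM1, the inhibitor of P-TEFb within 7SK, rose from 55.9 ± 1.07 to 816 ± 31.5 CPM (log2 fold change 3.87 ± 0.07, adjusted p = 1.5e-28 by edgeR). Its relative HEXIM2 rose from 10.1 ± 1.72 to 47.7 ± 4.86 CPM, at a log2 fold change of 2.24 ± 0.12. LARP7, which binds and stabilizes 7SK RNA, fell from 60.5 ± 2.93 to 21.2 ± 1.498 CPM, at -1.51 ± 0.10. The lowest rise was that of cyclin T1 (CCNT1) at 0.82 ± 0.09, the kinase CDK9 rose by 0.87 ± 0.07, and MEPCE, the capping enzyme of 7SK RNA, was at 110 ± 7.004 and 113 ± 6.57 CPM (log2 fold change 0.03, adjusted p = 0.70 by edgeR).

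The super elongation complex, which carries P-TEFb to genes, had 8 of its 9 listed genes tested, with 4 higher, 1 lower, 3 not passing the test and a median of 0.37. The ELL-associated factor EAF1 rose from 45.9 ± 5.15 to 345 ± 14.1 CPM, at a log2 fold change of 2.91 ± 0.08. Its relative EAF2 fell from 12.6 ± 0.590 to 4.90 ± 1.04 CPM, at -1.37 ± 0.18. ELL3 rose by 2.52 ± 0.24 from 1.58 ± 0.297 CPM, and the scaffold AFF4 rose by 0.54 ± 0.09. AFF1, ELL2 and MLLT1 had log2 fold changes of 0.05, 0.19 and 0.19 and did not pass the test. MLLT3 had 0 counts in all libraries.

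Among TFIIS, elongin and related factors, 3 genes rose and 5 fell of 8 tested, with a median of -0.77. TCEA2, a TFIIS gene that helps a backtracked polymerase, rose by 1.55 ± 0.12 on the log2 scale, and elongin B (TCEB2) by 1.10 ± 0.08. POLR2M fell from 33.2 ± 0.294 to 12.7 ± 0.306 CPM, at -1.39 ± 0.12.

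Of 12 genes for histone chaperones and histone modifiers that travel with the polymerase, 4 rose, 6 fell and 2 did not pass the test, with a median of -0.16. SUPT16H, the large subunit of the histone chaperone FACT, fell from 439 ± 21.9 to 121 ± 1.15 CPM, at a log2 fold change of -1.86 ± 0.07, and the remodeler CHD1 fell by 0.94 ± 0.09. The histone H3 methyltransferase DOT1L rose by 0.70 ± 0.07. RNF40, which with RNF20 forms the H2B ubiquitin ligase that works with RTF1, rose by 0.35 ± 0.07, while RNF20 was at -0.11 and the conjugating enzyme UBE2B at 0.02, neither passing the test.

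Of 14 genes for kinases and phosphatases of the CTD, 4 rose, 9 fell and 1 did not pass the test, with a median of -0.47. INTS6, a subunit of Integrator, rose from 34.3 ± 3.23 to 121 ± 7.14 CPM, at a log2 fold change of 1.82 ± 0.09, and CCNK, the cyclin of CDK12 and CDK13, rose by 0.74 ± 0.08. The CTD phosphatase RPAP2 fell from 31.6 ± 3.40 to 10.6 ± 1.03 CPM, at -1.57 ± 0.13, and PPP1CC fell by 1.37 ± 0.07. PPP1CA was at 0.11 and did not pass the test. CDK7, the target of THZ1, fell from 25.5 ± 2.84 to 20.1 ± 0.231 CPM, at -0.34 ± 0.12 (adjusted p = 0.0081 by edgeR). THZ1 acts on the CDK7 protein, so the transcript does not check the treatment.

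**Figure D5:**
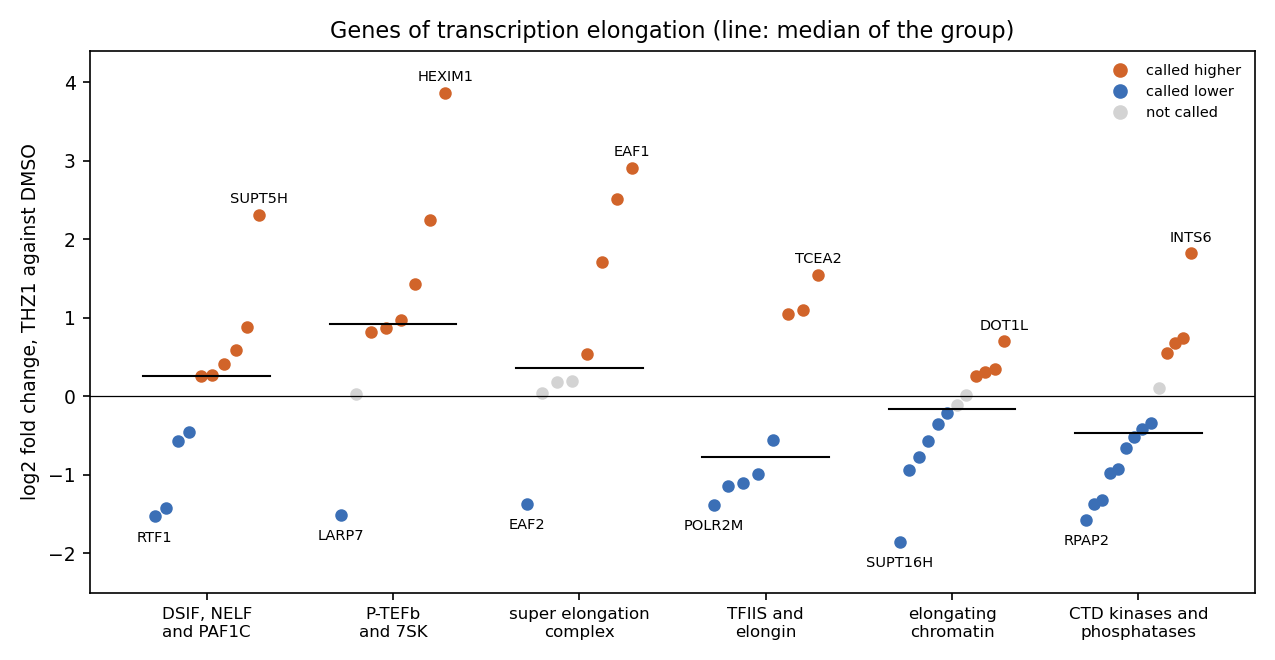
Log2 fold change with THZ1 against DMSO (edgeR, 3 libraries per treatment) of the 10 genes of DSIF, NELF and PAF1C and of 5 lists of other elongation genes, each dot a gene, coloured by call, with a line at the median of each group and the highest and lowest genes named. Each group held genes that rose and genes that fell, and the medians ran from -0.77 for TFIIS and elongin to 0.92 for P-TEFb and 7SK.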

How the data were processed

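RNA-SEQ libraries of NALM6 cells treated with DMSO or THZ1 were analysed. The authors deposited raw counts per gene and, in a second table, log2 values for 16730 genes with their own fold changes, p-values and FDR, which were not used. The submitters' processing notes name cutadapt, STAR, HTSeq, RSEM and GRCh37, and the strand setting is not given in the sources used here. The deposited log2 values were read as log2(FPKM + 1) and taken back to FPKM; the test design had assumed linear FPKM. Their sorted values differed by a median of at most 0.00170 between libraries of one treatment and of at least 0.0870 between treatments.

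Counts were filtered with filterByExpr by treatment (minimum count 10, minimum total 15), scaled by TMM and tested with the quasi-likelihood test of edgeR 4.0.16 (R 4.3.3) over 16622 genes, with Benjamini-Hochberg adjustment. The code was tested on simulated counts in which 200 of 14048 genes changed, evenly in both directions. All 200 were recovered, with 13 false calls among 13848 unchanged genes. With so few changed genes, the simulation cannot check the TMM scaling for data in which most genes were called. The standard error of a fold change was its size divided by the square root of the F statistic. Subunit ratios were tested by two-sided exact permutation. DESeq2 1.42.0, limma 3.58.1 and other scalings and filters were tried as alternatives. Gene bounds are from GENCODE mapped to GRCh37, and promoters from RefSeq on GRCh38.p14.

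The 10 genes and all gene lists were chosen with earlier results of these data known. By rule, the text names the 10 genes, NELFCD, WDR61, overlapping genes and, per list, the 2 highest and 2 lowest genes called and every gene not called. Some genes under this rule are not reported here. CDK9, CDK7 and the neighbours with a start near one of the 10 genes fall outside this rule and were picked with their values in view. Replicates were compared over genes, and all pairs of one treatment differed by more than counting noise (chi-square per gene 1.81 to 9.35). The 10 genes had 196 to 7732 counts per library, and the spread between libraries, not counting alone, limits their precision.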

Additional observations from a re-analysis of the deposited data

How the results depend on the processing

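SUPT4H1, SUPT5H, NELFE, PAF1, CTR9, LEO1 and RTF1 kept their direction and their call under every scaling, filter, tool and left-out library that was tried. The number of the 10 genes called higher was 3 with library sizes alone, and at log2 fold changes of at least 1 and 1.5 it was 1 and 1, with 2 and 1 called lower. Of the genes of the 5 elongation lists, 10 and 7 were called higher and 9 and 3 lower at these fold thresholds. Over all genes, 3633 of the 10156 genes with a mean of at least 10 CPM were called higher, an alternative chosen after seeing the data. At a log2 fold change of at least 1.5, 4088 genes were called higher and 2142 lower, and at 1, 5091 higher and 3763 lower, against 7224 higher and 6826 lower at any fold. Library sizes alone gave 6319 genes higher and 7985 lower over all genes, and 18 and 26 for the 5 lists, while upper quartile factors gave 26 and 20 for the lists. The calls of NELFA, NELFB and CDC73 rested on scaling, and no direction was reversed. The median log2 fold change of all genes moved by 0.19 with upper quartile factors, by -0.25 with library sizes alone and by -0.26 on the deposited FPKM values.

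Replicate numbers are shared between treatments, but same-numbered libraries did not deviate together (correlations of -0.00400, 0.000969 and 0.0206), and only replicate 3 correlated best with its own number. With a replicate block, 6 of the 10 genes were called higher and 4 lower, and 7181 genes were called higher and 6786 lower over all genes. Leaving out a library moved the log2 fold change of SUPT5H between 2.26 and 2.33 and that of RTF1 between -1.57 and -1.52. The subunit balance kept its direction in the alternatives tried, and that of PAF1 varied most in proportion, from -0.49 to -0.12, the last with WDR61 included, where the treatments overlapped (exact permutation test, p = 0.3).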
